A study of Homo sapiens with 4 samples.

Results

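The nuclear-encoded genes of the respiratory chain were described as a group in nascent RNA from U2OS cells, a human osteosarcoma line. Members were chosen by symbol alone: sense-strand entries named for NDUF subunits of complex I, the SDH subunits of complex II, the UQCR subunits of complex III, the housekeeping COX subunits of complex IV, and ATP5 genes of ATP synthase other than numbered pseudogenes. This gave 78 of 57428 genes with a sense entry, of which 37 belong to complex I, 4 to complex II, 8 to complex III, 10 to complex IV and 19 to ATP synthase. Bru-seq was used, in which cells take up bromouridine (2 mM for 30 min, with no chase) and an antibody against it recovers the RNA made in that time. One group of 2 libraries came from cells in hypertonic medium (300 mM sodium, reached with concentrated phosphate-buffered saline) and the other group of 2 came from cells in isotonic medium (150 mM sodium, with ordinary saline added to the same volume). All 4 libraries came from the same engineered line, which stably overexpresses GFP-DCP1a, a decapping cofactor joined to a fluorescent protein, and is kept under G418, so no library shows the parental line. The labels do not give the length of the exposure or say whether replicates were separate cultures, so a p-value reflects only how far these libraries scatter, and that scatter may be technical.

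Oxidative phosphorylation takes place in the inner mitochondrial membrane. Complex I accepts electrons from NADH and complex II from succinate. Both pass them through ubiquinone to complex III, then by cytochrome c to complex IV, which reduces oxygen, and ATP synthase uses the resulting proton gradient to make ATP. The mitochondrial genome encodes some core subunits of complexes I, III and IV and of ATP synthase, while the genes described here are transcribed in the nucleus. NRF1, GABPA (of the ETS family) and YY1 are textbook regulators of many of them.

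Promoter sequence was compared with those regulators' motifs, which were searched on both strands: GCGCA, any base, then GCGC for NRF1, CCGGAAG for ETS factors, and AAGATGGC for YY1. The windows ran from 250 bases before to 50 bases after each RefSeq gene start on GRCh38.p14, and 61 members had 73 of them. The NRF1 letters were found in 20.5% of the members' windows, against 5.78% of all 35116 windows. The ETS letters were found in 28.8% of the members' windows, against 10.3% of all windows. The YY1 letters were found in 17.8% of the members' windows, against 2.89% of all windows. At least 1 of the 3 was present in 53.4% of the members' windows, against 17.0% of all windows, and ETS and YY1 letters overlapped in 0 member windows. All windows belong to 27305 genes, whether expressed or not. No background of expressed genes or of like base composition was used, so these shares do not set the members apart from other expressed genes. The stretches that follow lie upstream of the RefSeq start of members whose values are given further on, 5′ to 3′ on the gene's strand, and capitals mark the motif letters.
UQCRFS1 (chr19:29213152-29213211, minus strand; NRF1): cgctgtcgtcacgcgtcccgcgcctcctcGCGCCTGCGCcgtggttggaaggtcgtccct
UQCRC1 (chr3:48609659-48609718, minus strand; NRF1): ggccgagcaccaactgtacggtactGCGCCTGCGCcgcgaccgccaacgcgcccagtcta
NDUFB4 (chr3:120596248-120596307, plus strand; NRF1): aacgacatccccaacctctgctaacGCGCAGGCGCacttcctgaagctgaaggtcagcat
SDHA (chr5:218260-218319, plus strand; NRF1): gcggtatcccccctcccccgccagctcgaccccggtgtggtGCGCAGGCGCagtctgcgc
SDHD (chr11:112086738-112086797, plus strand; NRF1): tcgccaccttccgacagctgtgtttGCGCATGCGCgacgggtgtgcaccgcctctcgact
NDUFS1 (chr2:206159569-206159628, minus strand; ETS): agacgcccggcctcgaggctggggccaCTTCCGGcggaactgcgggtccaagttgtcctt
COX6B1 (chr19:35648263-35648322, plus strand; ETS): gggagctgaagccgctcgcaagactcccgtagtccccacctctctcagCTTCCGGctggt
COX5B (chr2:97645998-97646057, plus strand; ETS): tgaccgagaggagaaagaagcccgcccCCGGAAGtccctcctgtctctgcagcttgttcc
ATP5J (chr21:25735078-25735137, minus strand; YY1 and ETS): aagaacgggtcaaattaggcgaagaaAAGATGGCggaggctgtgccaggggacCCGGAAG

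A match describes letters only. Among tested members, the 15 with NRF1 letters had a median log2 fold change (hypertonic over isotonic) of -0.48, and the 45 windowed members without them one of -0.44. The 20 with ETS letters stood at -0.32 and the 40 without at -0.51, while the 11 with YY1 letters and the 49 without stood at -0.46 and -0.45. A negative value was found for 12 of the 15 with NRF1 letters, 14 of the 20 with ETS letters and 11 of the 11 with YY1 letters, and for 37 of 45, 35 of 40 and 38 of 49 without them.

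The 4 libraries held 23048409 to 44888307 counts, isotonic replicate 1 being the deepest, and counts were scaled between libraries with TMM factors and given as CPM, scaled by each library's sense total. The hypertonic libraries differed from each other more than the isotonic ones. Between hypertonic replicates 1 and 2 the median absolute difference over all 21238 tested genes was 0.88 on the log2 scale, and between the isotonic replicates it was 0.36. Mesenchymal markers were present, with VIM at 383 and 127 CPM in hypertonic cells, against 209 and 154 CPM in isotonic cells, and 8 of 10 were tested (all but TWIST1 and COL1A2). Of the epithelial markers 4 of 5 were tested, all with positive values, among them KRT8 at 31.9 and 40.3 CPM in hypertonic cells, against 15.6 and 22.6 CPM in isotonic cells. Of the blood and liver markers 1 of 5 and 1 of 2 were tested. PTPRC had 5.91 and 4.95 CPM in hypertonic cells, against 2.80 and 3.82 CPM in isotonic cells. APOA1 had 0.760 and 0.904 CPM in hypertonic cells, against 0.0245 and 0.0516 CPM in isotonic cells. Its start lies 5452 bases after the end of SIK3 on the same strand. In isotonic cells SIK3 had 1.43 RPKM and APOA1 0.0124 RPKM. HBB, ALB and the muscle-type subunit genes COX6A2 and COX7A1 had 0 counts in all 4 libraries. The part of these markers in the members' values was not tested. In bulk RNA fewer transcribing cells and less RNA per cell cannot be told apart.

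Of the 78 members, 76 had enough counts to be tested. NDUFA7 was left with 145 counted bases after the authors removed bases shared with other genes, and ATP5J2LP, a processed pseudogene, had 0 counts in every library. With edgeR's quasi-likelihood test and Benjamini-Hochberg adjustment over all genes, 0 of the 76 members passed 0.05, as did 0 of all 21238 genes (0%). The lowest adjusted p among members was 0.392, for UQCRFS1. At an unadjusted p under 0.05 edgeR had 3 members lower in hypertonic cells (UQCRFS1, ATP5S and COX7B) and 0 higher, where 2.01% of all genes were lower and 8.89% higher. DESeq2 called 0 members and 3.44% of all genes, and limma-voom called 0 members and 0 genes. In edgeR 0 members were called with no filter (2.45% of all genes) and with the replicate number as a block (1.81%). The fold changes that follow are therefore values with their standard errors, none of them past the test: 47 of the 76 were smaller than their own SE and 6 exceeded 2 SE.

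Most members lay lower in hypertonic cells. A negative fitted log2 fold change was found for 61 of 76 members (80.3%), with a median of -0.45 and a range of -1.96 to 0.73. By total count 50 of 76 were negative, with a median of -0.17, and by upper quartile 53 of 76, with a median of -0.27. The same share was 47.6% over all tested genes, whose median was 0.04, and 77.2% over the 4828 expressed protein-coding genes (mean RPKM of at least 1), whose median was -0.33. With TMM, both hypertonic values were under both isotonic values in 25 members (32.9%), where all tested genes showed 17.5% and expressed protein-coding genes 38.7%. Overlap of CPM values is judged with TMM here and below unless another scaling is named, and it depended on the scaling. UQCRC2 was among the 25, but its deposited RPKM overlapped, at 0.993 and 1.56 in hypertonic and 1.96 and 1.44 in isotonic cells. UQCRFS1 stayed without overlap, at 0.482 and 2.32 RPKM in hypertonic and 4.79 and 3.15 RPKM in isotonic cells. Both hypertonic values were above in 1 member, the read-through gene ATP5J2-PTCD1, where the background was 22.5% of all tested and 5.32% of expressed protein-coding genes. That class was limited to a mean RPKM of at least 1, and the members were not. The 46 members at or above that level had a median of -0.64, with 40 negative (87.0%) and 19 without overlap below (41.3%), and the 30 under it had a median of -0.19, with 21 negative.

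**Figure D1:**
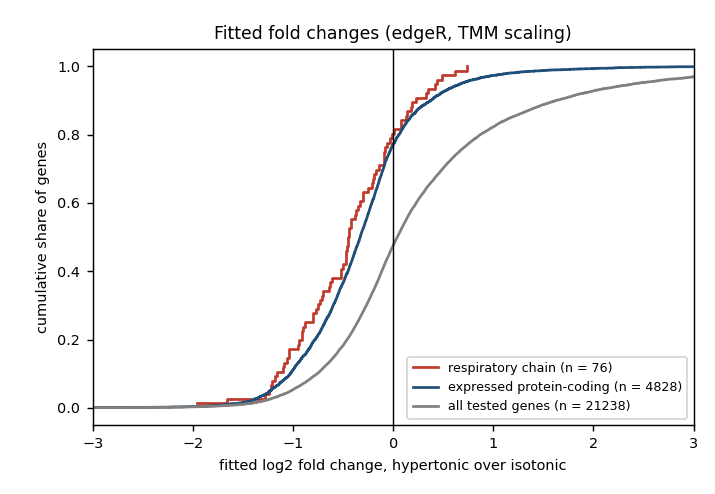
Cumulative share of genes (y axis) against fitted log2 fold change, hypertonic over isotonic (x axis, clipped), for 76 respiratory chain genes, 4828 expressed protein-coding genes and 21238 tested genes. The respiratory chain curve (median -0.45) runs close to that of expressed protein-coding genes (median -0.33), and both lie left of all tested genes (median 0.04).

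The difference was larger in hypertonic replicate 1 than in replicate 2. Relative to the isotonic mean of each gene, the members' median log2 CPM was -1.05 in hypertonic replicate 1 and -0.08 in hypertonic replicate 2, against 0.24 in isotonic replicate 1 and -0.24 in isotonic replicate 2. Expressed protein-coding genes stood at -0.53 and -0.33 in the hypertonic libraries. Replicate 1 of the hypertonic group was the lowest of the 4 libraries for 64 of the 76 members (84.2%), next to 53.5% of expressed protein-coding genes and 36.5% of all tested genes. The members lay below their isotonic mean in 70 cases in hypertonic replicate 1 and in 41 cases in hypertonic replicate 2. The isotonic replicates also differed for these genes, with replicate 1 above replicate 2 in 68 of 76 members and by a median of 0.48, while expressed protein-coding genes had a median difference of 0.00012 there.

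Leaving out a library showed the same dependence. Without hypertonic replicate 1 the members' median was -0.13, with 44 of 76 negative, while expressed protein-coding genes stood at -0.38. The members then lay 0.24 above that class, whereas with all 4 libraries they lay 0.12 below it. Without hypertonic replicate 2 the median was -1.14, 71 of 76 were negative, and edgeR called 24 members, all lower: 12 of complex I, SDHA of complex II, 2 of complex III, 3 of complex IV and 6 of ATP synthase. In that fit 21.4% of all genes were called and 10.3% were called lower, and the single hypertonic library was assumed to vary as the isotonic pair did. Without isotonic replicate 1 the median was -0.22, with 48 of 76 negative. Neither that fit (0.0255% of all genes called) nor the fits without isotonic replicate 2 (0.0165%) or hypertonic replicate 1 (0%) called a member.

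**Figure D2:**
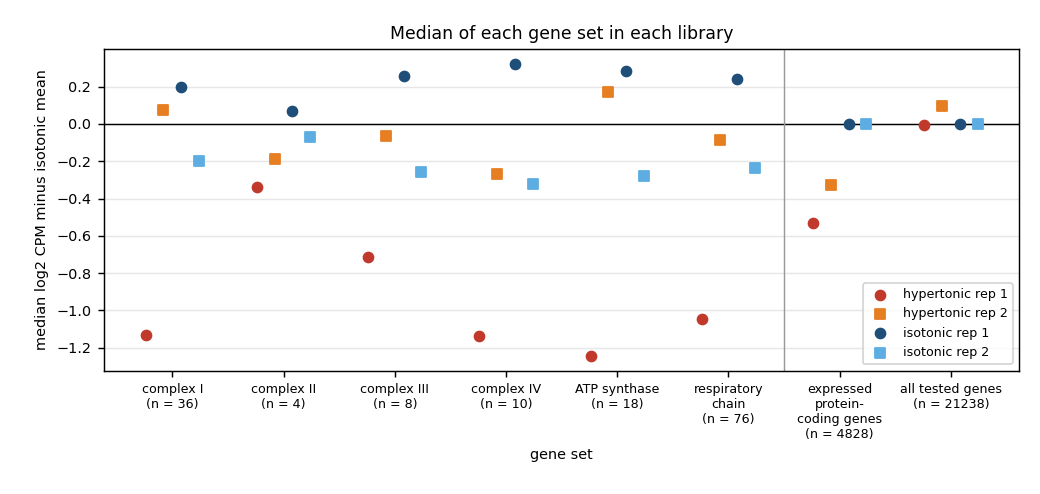
Median log2 CPM minus the gene's isotonic mean (y axis) for each gene set (x axis), one point per library, hypertonic libraries left of isotonic ones. Hypertonic replicate 1 lies lowest for every complex, at -1.13 for complex I and -0.34 for complex II, while hypertonic replicate 2 lies at 0.08 for complex I and 0.17 for ATP synthase.

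Summed over the 76 tested members, nascent RNA amounted to 1199 and 1756 CPM in hypertonic cells, against 2441 and 1887 CPM in isotonic cells. The groups did not overlap, and the higher hypertonic sum lay close to the lower isotonic one. By total count they did overlap, at 1132 and 2141 CPM in hypertonic cells, against 2374 and 1673 CPM in isotonic cells. With TMM, complex II had nearly the same sum in both hypertonic replicates, 187 and 184 CPM, against 222 and 207 CPM in isotonic cells, and by total count 177 and 225 CPM in hypertonic cells, against 216 and 183 CPM in isotonic cells. The ATP synthase sums overlapped with TMM, at 197 and 405 CPM in hypertonic and 557 and 345 CPM in isotonic cells, as did those of complex III, at 99.8 and 172 CPM in hypertonic and 229 and 169 CPM in isotonic cells.

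**Figure D3:**
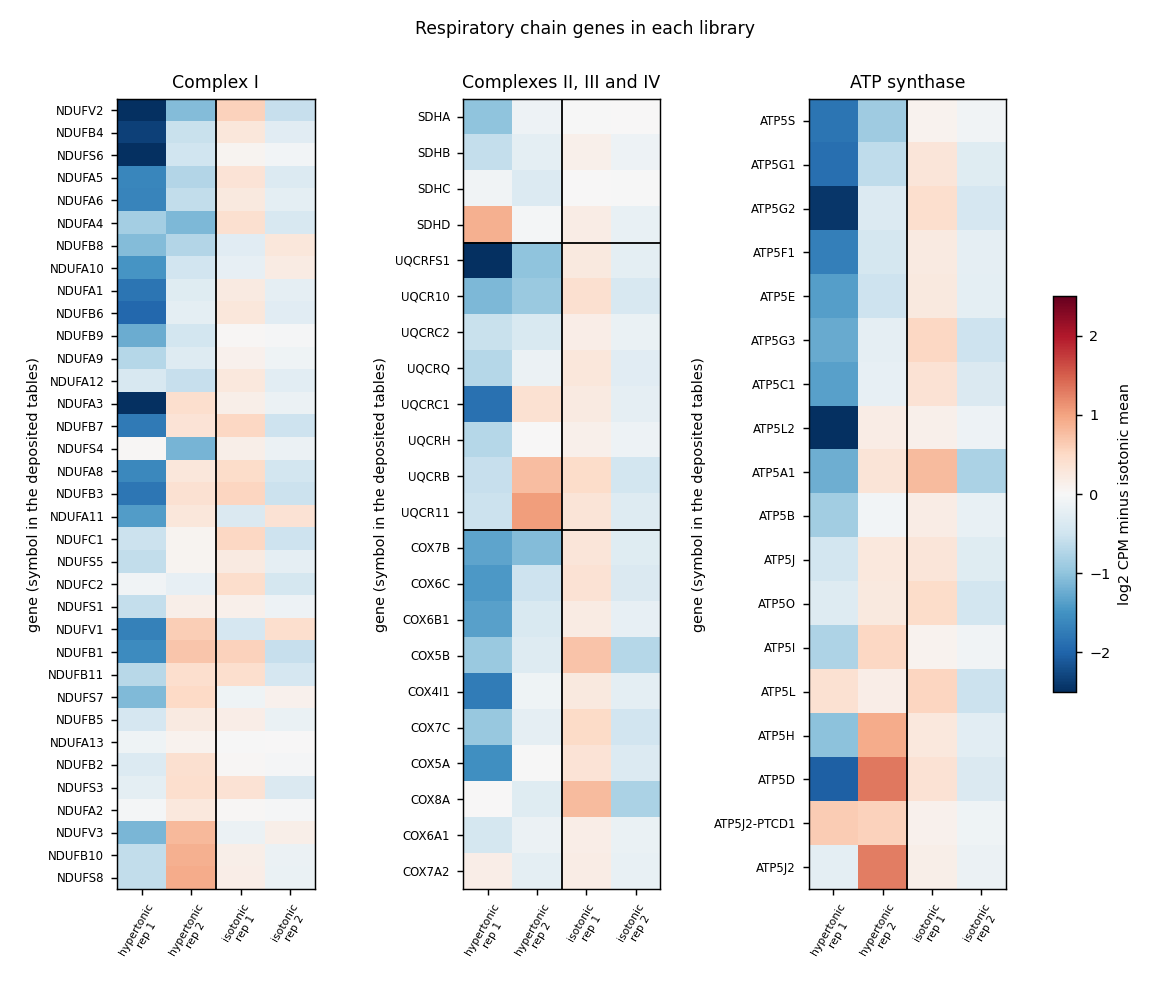
Log2 CPM minus the gene's isotonic mean (colour scale, blue lower and red higher) for 75 of the 76 tested genes (y axis) in each of 4 libraries (x axis, hypertonic left of the vertical line), with complexes II, III and IV in 1 panel split by lines. Hypertonic replicate 1 is the lowest library for most genes drawn, and hypertonic replicate 2 mixes blue and red, with 41 genes below their isotonic mean.

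Complex I, the NADH dehydrogenase, had 36 tested members, with a median of -0.45 and 30 negative values. With TMM, the hypertonic values were both under the isotonic ones in 12 of them (33.3%) and both above in 0. Expressed protein-coding genes had 38.7% and 5.32%. By total count 23 of 36 were negative, with a median of -0.13. The 7 nuclear core subunits, which carry the flavin and the iron-sulfur clusters or lie close to the quinone site, had a median of -0.17 with 5 negative. By total count that median was 0.19, with 2 of 7 negative. Without hypertonic replicate 1 it was 0.33, with 2 of 7 negative, and without hypertonic replicate 2 it was -1.16, with 7 of 7 negative, so the direction for the core depended on the scaling and on the library. The 29 other tested subunits stood at -0.46, with 25 negative, and at -0.15 by total count, with 21 negative.

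NDUFA4 (chromosome 7, 10931951 to 10940256, minus strand), a small subunit first assigned to complex I and later found in complex IV, measured 29.4 and 24.5 CPM in hypertonic cells, against 70.4 and 40.4 CPM in isotonic cells. Its groups did not overlap, and unlike most members it had its lowest value in hypertonic replicate 2. The log2 fold change was -1.04 ± 0.48 (SE, n = 2 per group; edgeR, adjusted p = 0.486). NDUFA10 (chromosome 2, 239957372 to 240025402, minus strand), an accessory subunit, measured 56.0 and 113 CPM in hypertonic cells, against 136 and 180 CPM in isotonic cells. Each library stood apart from the next and the groups did not overlap, with a log2 fold change of -0.91 ± 0.45 (edgeR, adjusted p = 0.532). NDUFV2 (chromosome 18), the core subunit that holds an iron-sulfur cluster beside the flavin subunit NDUFV1, had the lowest fold change of all members, -1.96 ± 0.90. Its entry rested on 3.48% of the gene's length, and it measured 0.549 and 2.91 CPM in hypertonic cells, against 9.27 and 4.18 CPM in isotonic cells.

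The catalytic members of complex I differed between the hypertonic replicates. NDUFV1, which binds NADH and the flavin, measured 2.03 and 10.4 CPM in hypertonic cells, against 5.05 and 8.98 CPM in isotonic cells (log2 fold change -0.17 ± 0.82). The isotonic values lay between the hypertonic ones. NDUFS1, the largest of the iron-sulfur subunits, measured 62.0 and 103 CPM in hypertonic cells, against 102 and 85.9 CPM in isotonic cells (-0.19 ± 0.42). For both genes the groups overlapped, with hypertonic replicate 1 lowest each time. NDUFB4, an accessory subunit of the membrane arm whose promoter stretch is printed above, measured 6.17 and 21.1 CPM in hypertonic cells, against 37.9 and 25.8 CPM in isotonic cells (-1.22 ± 0.66). NDUFS4 (chromosome 5), an accessory subunit, had the longest counted entry of all members, 122.71 kb, and measured 229 and 101 CPM in hypertonic cells, against 250 and 202 CPM in isotonic cells. It was one of 5 members with the lowest library in hypertonic replicate 2.

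Complex II, succinate dehydrogenase, has 4 subunits, all encoded in the nucleus. With TMM, 3 of them were lower in both hypertonic libraries than in both isotonic ones, as were 38.7% of expressed protein-coding genes. SDHA, the flavoprotein that oxidizes succinate, measured 32.5 and 60.2 CPM in hypertonic cells, against 65.3 and 65.8 CPM in isotonic cells (log2 fold change -0.50 ± 0.46). SDHB, the iron-sulfur subunit, measured 26.4 and 33.5 CPM in hypertonic cells, against 43.6 and 36.4 CPM in isotonic cells (-0.42 ± 0.46). SDHC, a membrane anchor, measured 76.0 and 63.5 CPM in hypertonic cells, against 80.9 and 79.8 CPM in isotonic cells (-0.20 ± 0.39, and 0.00015 by total count). With TMM none of these 3 genes overlapped between groups, and the differences were about the size of their SE or smaller. On the deposited RPKM scale all 3 overlapped. Hypertonic replicate 2 and isotonic replicate 2 had 1.47 and 1.28 RPKM for SDHA, 0.891 and 0.767 for SDHB, and 0.979 and 0.976 for SDHC.

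SDHD (chromosome 11, 112086773 to 112120013, plus strand), the other membrane anchor, ran the other way. It measured 52.0 and 27.2 CPM in hypertonic cells, against 32.0 and 24.6 CPM in isotonic cells, a log2 fold change of 0.48 ± 0.51 (edgeR, adjusted p = 0.889). Hypertonic replicate 1 alone was high, and without it the value was -0.096. The SDHD entry overlaps another gene on its strand and counted 80.8% of its length. Across the complex the median was -0.31, and -0.42 over the 3 members with no such overlap.

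Complex III, the cytochrome bc1 complex, had 8 members, 6 of them negative, with a median of -0.40. With TMM, the hypertonic values were both under the isotonic ones in 3 of the 8 (37.5%), next to 38.7% of expressed protein-coding genes. UQCRFS1 (chromosome 19, 29205321 to 29213541, minus strand), the Rieske iron-sulfur protein that hands electrons on towards cytochrome c, had the smallest p of all members. It measured 5.83 and 20.3 CPM in hypertonic cells, against 48.2 and 34.7 CPM in isotonic cells. The groups did not overlap, and hypertonic replicate 1 lay far below replicate 2. The log2 fold change was -1.67 ± 0.65 (SE, n = 2 per group; edgeR, adjusted p = 0.392). It ranged from -2.83 to -1.07 when each library was left out in turn.

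UQCR10, a small subunit of complex III, measured 5.36 and 6.17 CPM in hypertonic cells, against 15.6 and 8.93 CPM in isotonic cells (log2 fold change -1.09 ± 0.61). Its hypertonic replicates were close to each other and below both isotonic ones. The core proteins were unlike each other between replicates. UQCRC2 measured 45.2 and 51.3 CPM in hypertonic cells, against 74.4 and 59.8 CPM in isotonic cells (-0.48 ± 0.41), without overlap. UQCRC1 measured 3.84 and 18.5 CPM in hypertonic cells, against 16.5 and 12.1 CPM in isotonic cells (-0.36 ± 0.75), so that its highest and lowest values were both hypertonic. Positive values were found for UQCR11, which had 1690 counted bases, at 0.44 ± 0.82, and for UQCRB at 0.18 ± 0.63.

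Complex IV, cytochrome c oxidase, had negative fitted values for all 10 members, with a median of -0.68 and a range of -1.24 to -0.03. By total count 9 of 10 were negative, with a median of -0.41. With TMM, the hypertonic values were both under the isotonic ones in 3 of the 10 (30%): COX7B, COX6C and COX6B1. The share was 38.7% in expressed protein-coding genes. On the deposited RPKM scale COX7B stayed without overlap, while COX6C and COX6B1 overlapped. They had 1.96 and 1.07 RPKM in hypertonic replicate 2, against 1.72 and 0.945 RPKM in isotonic replicate 2. COX7B (chromosome X, 77899438 to 77907373, plus strand), a small subunit, measured 9.33 and 11.002 CPM in hypertonic cells, against 28.99 and 19.04 CPM in isotonic cells. Its hypertonic replicates were close to each other and below both isotonic ones, and the log2 fold change was -1.24 ± 0.54 (edgeR, adjusted p = 0.455). COX6C, also a small subunit, measured 17.8 and 33.6 CPM in hypertonic cells, against 61.8 and 37.3 CPM in isotonic cells (-0.95 ± 0.52). COX6B1, which faces the intermembrane space, measured 6.04 and 12.1 CPM in hypertonic cells, against 18.1 and 13.5 CPM in isotonic cells (-0.80 ± 0.60).

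The larger nuclear subunits of complex IV overlapped between groups. COX4I1, the ubiquitous form of subunit IV, measured 8.49 and 26.4 CPM in hypertonic cells, against 33.8 and 24.05 CPM in isotonic cells (log2 fold change -0.73 ± 0.63). COX5A, with which it assembles early, measured 5.32 and 15.5 CPM in hypertonic cells, against 19.6 and 12.2 CPM in isotonic cells (-0.62 ± 0.67). In both genes hypertonic replicate 2 lay between the isotonic values and hypertonic replicate 1 below them. COX7A2 was nearly level, at 37.2 and 27.9 CPM in hypertonic cells, against 37.6 and 28.95 CPM in isotonic cells (-0.03 ± 0.47).

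**Figure D4:**
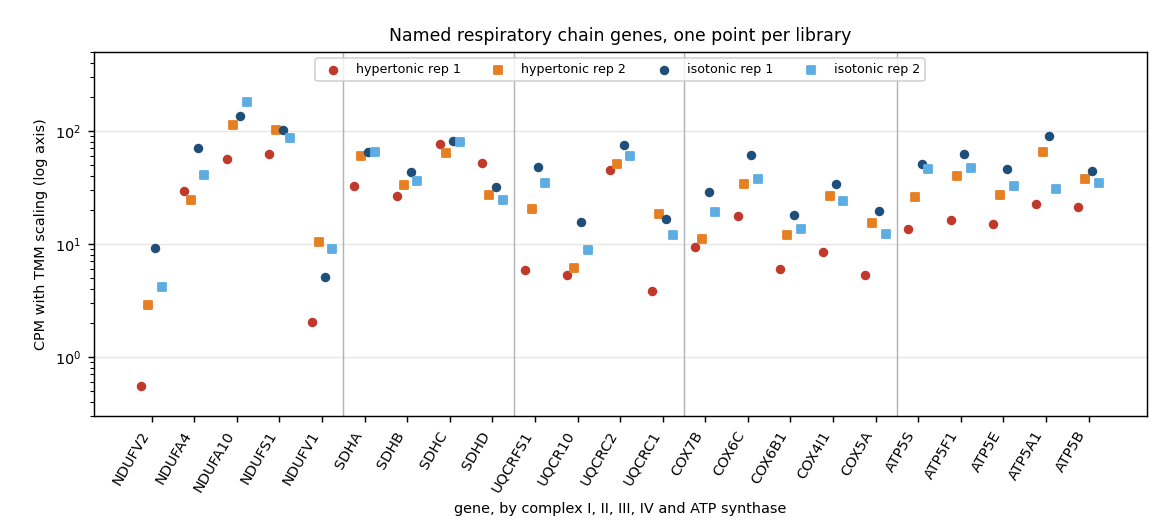
CPM with TMM scaling (y axis, log scale) of 23 genes (x axis, grouped by complex), one point per library, hypertonic libraries left of isotonic ones. COX7B and UQCR10 show hypertonic replicates close together below the isotonic ones, while UQCRC1 and NDUFV1 show hypertonic replicate 1 lowest and hypertonic replicate 2 highest.

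ATP synthase had 18 tested members, 12 of them negative, with a median of -0.44, and 10 negative by total count, with a median of -0.17. With TMM, the hypertonic values were both under the isotonic ones in 4 of the 18 (22.2%) and both above in 1 (5.56%). Expressed protein-coding genes had 38.7% and 5.32%. The 3 genes for the proton-carrying ring of subunit c encode the same mature protein and had the lowest median of the roles examined, -1.10, or -0.79 by total count. ATP5G1 measured 1.82 and 4.40 CPM in hypertonic cells, against 8.49 and 5.57 CPM in isotonic cells (log2 fold change -1.18 ± 0.72). ATP5G2 measured 8.83 and 37.7 CPM in hypertonic cells, against 63.7 and 35.9 CPM in isotonic cells (-1.10 ± 0.68), and ATP5G3 stood at -0.75 ± 0.66. The groups did not overlap for ATP5G1 and overlapped for the other 2. Without hypertonic replicate 1 the median of the 3 was -0.44, or 0.06 below that of expressed protein-coding genes.

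In the catalytic F1 head 4 of 5 genes were negative, with a median of -0.46. ATP5A1, the alpha subunit, measured 22.6 and 65.7 CPM in hypertonic cells, against 91.0 and 30.5 CPM in isotonic cells (log2 fold change -0.46 ± 0.65). Each group held 1 low and 1 high library, and the groups overlapped. ATP5B, the catalytic beta subunit, measured 21.3 and 37.6 CPM in hypertonic cells, against 44.5 and 34.6 CPM in isotonic cells (-0.42 ± 0.49). ATP5E, the small epsilon subunit of the central stalk, measured 15.0 and 27.2 CPM in hypertonic cells, against 46.5 and 32.9 CPM in isotonic cells (-0.91 ± 0.52). It was the only one of the 5 whose groups did not overlap with TMM. Its deposited RPKM did overlap, with 3.71 in hypertonic replicate 2 and 3.55 in isotonic replicate 2.

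The peripheral stalk, which holds the head still, had 3 of 4 genes negative and a median of -0.09, but 0.16 by total count. ATP5F1, its b subunit, measured 16.4 and 40.0 CPM in hypertonic cells, against 62.9 and 46.5 CPM in isotonic cells (log2 fold change -0.96 ± 0.54). Its groups did not overlap with TMM, but its deposited RPKM did, with 2.73 in hypertonic replicate 2 and 2.51 in isotonic replicate 2. The 3 supernumerary membrane subunits ATP5I, ATP5J2 and ATP5L had 0 negative values and a median of 0.18. With DESeq2 1 of the 3 was negative. Without isotonic replicate 2 their median was -0.11, so this direction rested on that library, and it also turned, to -0.29, without hypertonic replicate 2.

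ATP5S, now named DMAC2L and not a structural subunit, was included by its symbol. It measured 13.6 and 26.3 CPM in hypertonic cells, against 51.4 and 45.6 CPM in isotonic cells, with a log2 fold change of -1.28 ± 0.51 (edgeR, adjusted p = 0.402). Both isotonic values were close together and above both hypertonic ones. The median over the 73 members without ATP5S, ATP5L2 and the read-through gene ATP5J2-PTCD1 was -0.44. The natural inhibitor of the enzyme is named ATPIF1 in the tables and is therefore not a member: it measured 3.76 and 11.8 CPM in hypertonic cells, against 7.97 and 3.41 CPM in isotonic cells, with overlapping groups.

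Levels per length were compared with the deposited RPKM over the 48 members whose entry overlaps no other gene on the same strand. NDUFA4 was highest in isotonic cells, with 2.59 ± 0.26 RPKM in hypertonic and 5.28 ± 2.33 RPKM in isotonic cells (SD, n = 2 each). ATP5E followed with 2.59 ± 1.58 RPKM in hypertonic and 4.52 ± 1.38 RPKM in isotonic cells, then NDUFB4 with 1.94 ± 1.79 RPKM in hypertonic and 4.06 ± 1.35 RPKM in isotonic cells. These neighbours in the order differ by less than their SD. At the other end of the detected genes stood NDUFS7, a core iron-sulfur subunit of complex I, with 0.186 ± 0.165 RPKM in hypertonic and 0.177 ± 0.00764 RPKM in isotonic cells. ATP5D, the delta subunit of the central stalk, had 0.527 ± 0.666 RPKM in hypertonic and 0.337 ± 0.1404 RPKM in isotonic cells.

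The hypertonic replicates were closest to each other in the members with the longest entries, where length is the bases counted after removal of shared bases. The 8 members over 30 kb had library medians of -0.58 and -0.36 in hypertonic replicates 1 and 2 relative to the isotonic mean. All 8 were negative, and with TMM 6 (75%) had groups without overlap. Among expressed protein-coding genes over 30 kb, 83.2% were negative and 42.3% had both hypertonic values under both isotonic ones. The 28 members of 10 to 30 kb stood at -1.30 and 0.01, and the 40 members under 10 kb at -0.98 and 0.00. Expressed protein-coding genes of the same lengths stood at -0.24 and -0.45 over 30 kb, -1.13 and -0.20 between, and -0.77 and -0.03 under 10 kb. Most members are short, with a median of 8.31 kb next to 27.4 kb for expressed protein-coding genes. Across the 76 members, log10 counted length and the difference between hypertonic replicates 1 and 2 had a Spearman correlation of 0.154. It was 0.256 across the 47 without same-strand overlap and 0.444 across expressed protein-coding genes, with all genes measured in the same 2 libraries. The part of length in the members' values was not tested.

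Antisense entries, which count reads on the opposite strand of the same interval, were present for 75 members. Their share of the members' counts was 7.48% and 3.40% in the hypertonic libraries, against 1.61% and 2.21% in the isotonic libraries. Expressed protein-coding genes had 3.02% and 1.73% in the hypertonic and 0.924% and 0.921% in the isotonic libraries. The share was higher in both hypertonic libraries than in both isotonic ones for 28 of the 75 members (37.3%), where 45.2% of expressed protein-coding genes showed this, and lower in 1. The summed antisense level was 96.3 and 60.8 CPM in hypertonic cells, against 39.5 and 42.4 CPM in isotonic cells. With TMM the antisense sum was thus higher and the sense sum lower, but by total count the sense sums overlapped. Taken singly, antisense CPM was higher in both hypertonic libraries for 24 of the 75 members. NDUFB2, ATP5L, COX6C and ATP5S held 19.9, 14.4, 13.6 and 13.0 CPM of the sum in hypertonic replicate 1. The median share per member was 1.74% and 0.467% in the hypertonic libraries, and lower in both isotonic ones. Hypertonic replicate 1 again stood farthest out. The protocol mentions strand-specific synthesis for certain samples without naming them, and the part of strandedness in these shares was not tested.

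COX5B, a nuclear subunit of complex IV, had an antisense share of 65.3% and 20.3% in hypertonic cells, against 4.92% and 8.10% in isotonic cells. In antisense CPM this was 5.65 and 1.18 in hypertonic cells, against 0.490 and 0.310 in isotonic cells. The nearest opposite-strand gene with an end facing it, ACTR1B, lies 7580 bases beyond the end of COX5B. COX6C had 43.4% and 13.5% in hypertonic cells, against 2.48% and 4.24% in isotonic cells. Its GENCODE interval overlaps VPS13B on the other strand. The counted entry covered 77.6% of that interval, so the counted bases need not lie within VPS13B. In each gene both hypertonic libraries lay above both isotonic ones.

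Of the 75 members, 39 overlap an opposite-strand gene in GENCODE release 29 and 8 more have one that ends facing them within 10 kb. The overlapping members held 80.8 and 49.5 antisense CPM in hypertonic cells, against 34.1 and 36.0 CPM in isotonic cells. The 28 with neither held 5.77 and 4.92 CPM in hypertonic cells, against 1.83 and 1.72 CPM in isotonic cells. The summed antisense level was thus higher in both hypertonic libraries in either class. Taken singly, this held for 13 of the 39 and 9 of the 28 members. Most of the sum lay in members whose GENCODE interval overlaps another gene, and a counted entry can be shorter than that interval. NDUFB2, an accessory subunit of complex I that overlaps BRAF, had more antisense than sense counts over the 4 libraries together, with 67.6% and 40.9% in hypertonic and 45.3% and 51.7% in isotonic cells. There the groups overlapped.

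**Figure D5:**
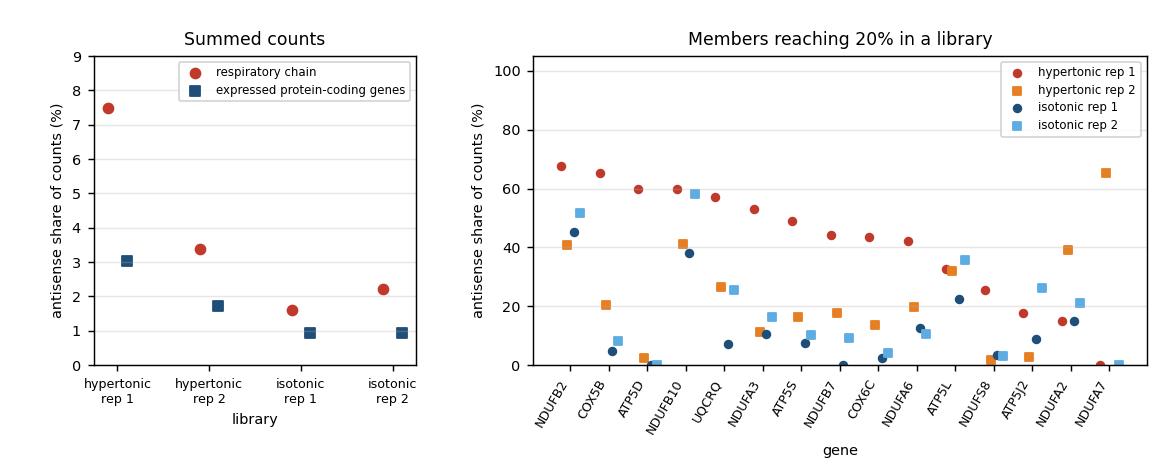
Left, antisense share of summed counts (y axis, %) in each library for respiratory chain and expressed protein-coding genes; right, the share (y axis, %) for the 15 members that reached 20% in a library (x axis), hypertonic libraries left of isotonic ones. The respiratory chain share is 7.48% in hypertonic replicate 1 and 1.61% in isotonic replicate 1, and COX5B reaches 65.3% in hypertonic replicate 1.

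The genes that surround the chain showed a similar pattern in most lists and a different one in single genes. Assembly factors, which insert cofactors and join subunits, had 36 of 45 tested genes negative with a median of -0.36, the hypertonic values both under the isotonic ones in 17 (37.8%) and both above in 6 (13.3%), next to 38.7% and 5.32% of expressed protein-coding genes. The tricarboxylic acid cycle, which supplies NADH and succinate, had 14 of 17 negative with a median of -0.54. Genes that copy and transcribe mitochondrial DNA had 10 of 12 negative with a median of -0.68, and nuclear regulators such as NRF1 and GABPA had 9 of 11 negative with a median of -0.41. Among expressed protein-coding genes 77.2% were negative, with a median of -0.33. Isoforms and subunits outside the rule went another way, with 2 of 4 tested genes negative and a median of 0.40. The cytochrome c list had 2 of 3 negative with a median of -0.20. None of these genes passed the edgeR test over all genes (0 of 21238). At an unadjusted edgeR p under 0.05 the tricarboxylic acid cycle, mitochondrial DNA and regulator lists had 1 gene between them, POLG2. The assembly factors had 1 lower and 3 higher, and the isoforms and subunits outside the rule had 1 higher.

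Some of the 2 genes of smallest p in each list were far higher in hypertonic cells, and these started within 10 kb after another gene on the same strand. COX18, which inserts a complex IV subunit into the membrane, measured 94.5 and 47.6 CPM in hypertonic cells, against 10.8 and 8.93 CPM in isotonic cells (log2 fold change 2.85 ± 0.53; edgeR, adjusted p = 0.192). Its start lies 3621 bases after the end of ANKRD17 on the same strand. POLG2, the accessory subunit of the mitochondrial DNA polymerase, measured 188 and 102 CPM in hypertonic cells, against 21.3 and 29.9 CPM in isotonic cells (2.503 ± 0.47; edgeR, adjusted p = 0.192), and starts 2580 bases after DDX5. UQCC3, an assembly factor of complex III, stood at 2.01 ± 0.72 and starts 1777 bases after METTL12. NDUFA4L2, a relative of NDUFA4, stood at 2.34 ± 0.86 and starts 2738 bases after STAC3. That value rested on few counts, with 1.01 and 0.550 CPM in hypertonic cells, against 0.147 and 0.155 CPM in isotonic cells. Each of these neighbours had at least 4 times the isotonic RPKM of the gene behind it, a position that 0 of the 78 members held, and their own isotonic levels ran between 0.0935 RPKM (STAC3) and 47.6 RPKM (DDX5). This position did not go with a higher value throughout: SURF1, an assembly factor of complex IV behind SURF4, stood at -0.23 ± 0.72. SDHAF4, an assembly factor of complex II without such a neighbour, stood at 1.59 ± 0.63. COX7B2, also without one, stood at 1.45 ± 0.85 on few counts, with 1.22 and 0.550 CPM in hypertonic cells, against 0.417 and 0.206 CPM in isotonic cells. The part of position in these values was not tested.

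Most other genes named by that rule were lower or level. TEFM, a mitochondrial transcription elongation factor, stood at -1.63 ± 0.81, DLST of the tricarboxylic acid cycle at -0.85 ± 0.46, and COX7A2L, a supercomplex factor, at -1.01 ± 0.58. HCCS, which attaches heme to cytochrome c, stood at -0.96 ± 0.64 and CYCS, cytochrome c itself, at -0.20 ± 0.50. GABPA, whose interval overlaps that of ATP5J on the other strand, measured 45.1 and 41.6 CPM in hypertonic cells, against 77.3 and 61.8 CPM in isotonic cells (log2 fold change -0.68 ± 0.41). Its hypertonic values lay below both isotonic ones, while ATP5J, a subunit of the peripheral stalk, had 24.1 and 39.6 CPM in hypertonic cells, against 40.9 and 26.8 CPM in isotonic cells, with overlapping groups. GABPB2, one of GABPA's partner subunits, lay higher in both hypertonic libraries (0.78 ± 0.48).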

How the data were processed

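Nascent RNA was measured in 2 hypertonic and 2 isotonic libraries of 1 cell line. Per the submitters' processing notes, the tools were bedtools 2.16.2, STAR 2.5.3a, Bowtie2 2.3.3 and CASAVA 1.8.2, and the build was GRCh38 (hg38); the role of each tool and the annotation release were not given in the sources used here. Per gene and strand the authors deposited an estimated count and an RPKM value, in tables without a header, and both units were inferred from their values. The deposited RPKM is proportional to count over length within a library. Bases shared by genes on the same strand were pooled by the authors in 48 shared-region entries (3.11 to 3.48% of counts), left out here, so 30 members were counted on part of their length or beside another gene, and 6 on under 10% of it. Genes without a match in GENCODE release 29 held 0.165 to 0.209% of counts and were also left out. Molecular identifiers are not mentioned in the labels, and counts are of reads.

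Strand and gene type came from GENCODE release 29 by Ensembl identifier, and coordinates, counted from 1, are those of the deposited tables. The sense strand held 25068625 and 20870648 counts in the hypertonic and 41932649 and 21865138 in the isotonic libraries. Deposited expected counts were rounded and tested with edgeR 4.0.16 under R 4.3.3 (filterByExpr, TMM factors of 0.947, 1.22, 0.974 and 0.887, quasi-likelihood test, Benjamini-Hochberg at 0.05 over all tested genes). SE is the size of the log2 fold change divided by the square root of F. DESeq2 1.42.0, limma-voom (limma 3.58.1), other scalings, no filter, a replicate block and leaving out each library were run as alternatives. Lists are described by counts and medians, with no test. Pseudogenes with the members' names numbered 157, of which 8 were tested, and their counts came to 1.69 to 2.65% of the members'; the placing of reads that match both was not given in the sources used here.

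Antisense shares are antisense counts over both strands. The neighbour rule for genes behind another gene took a start within 10 kb after a same-strand gene with at least 4 times the isotonic RPKM. Promoter windows came from RefSeq (GRCh38.p14): 77 members matched a name and 61 had a window. Named members were the 3 of smallest p in complexes I, III, IV and ATP synthase, all SDH genes and a set of core subunits, 24 members in all. The ATPase inhibitor, which is not a member, was named as well, and in other lists the 2 of smallest p were named. Some genes that these rules name are not reported here, though counts and medians include them. Further members (such as NDUFB4, NDUFS4, the subunit c genes and those given for their level per length or antisense share) were chosen after their values were seen. The members and lists were chosen with earlier results of these data known. Figures were drawn with matplotlib 3.10.9 from tables read with pandas 2.3.3 under Python 3.11.15.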

Additional observations from a re-analysis of the deposited data

How the results depend on the processing

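With 2 libraries a group, an exact permutation test of 1 value cannot give a p below 0.333, and depth was lowest in hypertonic replicate 2. Over all tested genes the median log2 fold change was 0.04 with TMM, 0.26 by total count and 0.23 by upper quartile. The members' median lay below it by 0.49 with TMM, 0.44 by total count and 0.50 by upper quartile, and below that of expressed protein-coding genes by 0.12, 0.07 and 0.13. Complex II had a median of -0.42 without overlapping members, -0.090 by total count and -0.12 by upper quartile. Total count also turned SDHC (0.00015), NDUFV1 (0.19) and NDUFS1 (0.072). On the deposited RPKM scale (log2 with 0.05 added, chosen after seeing the data) the members' median was -0.44. Of 24 named members, 0 changed direction under RLE, upper quartile, DESeq2, limma-voom, no filter or the block.

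Over all genes, edgeR called 916 with no filter, DESeq2 731 and edgeR with the replicate number as a block 384 (1.81%), with 0 members in each. The replicate numbers pair no cultures in the labels. Deviations of same-numbered libraries from their group means correlated at 0.025 across genes. That single correlation cannot decide whether such libraries shared a culture or a preparation. Under the block the members' median was -0.53, with 65 of 76 negative.

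Leaving out each library in turn gave 0 to 4918 genes called, 0 to 24 members lower, 44 to 71 members negative and medians of -1.14 to -0.13 for all members, -1.21 to 0.034 for complex I, -0.39 to -0.22 for complex II, -0.74 to -0.12 for complex III, -1.25 to -0.22 for complex IV and -1.39 to 0.051 for ATP synthase. The highest were without hypertonic replicate 1 for all but complex IV, whose highest was without isotonic replicate 1. SDHD ranged from -0.096 to 0.87, NDUFV1 from -1.79 to 0.54, NDUFS1 from -0.61 to 0.098, UQCRC1 from -1.90 to 0.33 and ATP5A1 from -1.43 to 0.49. The lowest medians were without hypertonic replicate 2, except in complex II. The cause was not tested.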
